A study of Homo sapiens with 1 sample.

Results

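EMX1, EMX2, LHX2, PAX6, NR2F1, NR2F2, DMRTA2 and GLI3 encode transcription factors that pattern the telencephalon, the front part of the forebrain. They were followed through the single-cell transcriptome of human neural progenitor cells (NPCs). The genes were chosen by name, 8 of the 33538 listed in the count table, and all 8 had counts. The culture began from H9, an established human embryonic stem cell (hESC) line of genotype WT, which carries the human form of the enhancer HAR123 (hHAR123). The cells spent 2 days in Rock inhibitor (5 μM), Dorsomorphin (1 μM) and SB431542 (10 μM), then 5 days of rotation in Dorsomorphin and SB431542 at those doses, and 7 days replated on Matrigel with none of them listed. Per the study's methods, independent clones were pooled and the cells taken ahead of rosette selection. They form 1 library, so there is no replicate: cells of 1 culture were compared with each other, no test was run, and all intervals are 95% and cover counting error only.

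In the embryo, the cortical primordium is laid out along axes by graded transcription factors. EMX2 and NR2F1 are high towards the back of the cortex, while fibroblast growth factors (FGFs) are released at the front and PAX6 slopes the other way. LHX2, a LIM homeodomain protein, holds the cortical fate against that of the hem, the signalling border of the cortex. EMX1 is the paralog of EMX2, NR2F2 that of NR2F1, and both NR2F proteins are orphan nuclear receptors. DMRTA2 is a DM-domain factor of the dorsal telencephalon. GLI3, a zinc finger effector of Hedgehog signalling, acts mostly as a repressor in dorsal cells.

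The sequence ahead of NR2F1, LHX2 and PAX6 is shown because the 250 bases before the first of their listed transcription starts held no annotated exon. PAX6 has 9 listed starts, and the windows of 7 of them overlap PAX6 exons, while NR2F1 has 2 starts and LHX2 has 1. RefSeq promoter entries (GRCh38.p14) were found for 6 of the 8 genes. Capitals mark the CCAAT box, a common promoter element, on either strand, and the LHX2 window lies inside the annotated span of the gene.
NR2F1, chr5:93582972-93583221, plus strand: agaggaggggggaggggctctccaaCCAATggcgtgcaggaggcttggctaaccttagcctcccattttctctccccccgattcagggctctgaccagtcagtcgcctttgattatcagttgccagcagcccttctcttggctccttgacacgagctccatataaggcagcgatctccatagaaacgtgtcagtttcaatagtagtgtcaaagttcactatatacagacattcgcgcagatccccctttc
LHX2, chr9:124011518-124011767, plus strand: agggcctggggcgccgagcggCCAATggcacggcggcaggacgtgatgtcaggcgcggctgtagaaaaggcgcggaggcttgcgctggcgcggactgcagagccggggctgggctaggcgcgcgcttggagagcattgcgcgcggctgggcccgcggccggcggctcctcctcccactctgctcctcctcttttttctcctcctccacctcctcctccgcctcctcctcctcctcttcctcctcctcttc
PAX6, chr11:31817962-31818211, minus strand: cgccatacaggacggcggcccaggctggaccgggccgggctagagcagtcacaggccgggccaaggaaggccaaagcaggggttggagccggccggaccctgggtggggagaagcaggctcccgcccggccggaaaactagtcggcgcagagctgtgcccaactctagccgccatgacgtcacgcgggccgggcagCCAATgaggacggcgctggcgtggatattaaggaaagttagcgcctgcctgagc
Each of the windows shown held 1 CCAAT box. Of all 9 PAX6 windows 3 held one, and the other NR2F1 window held none. Both the EMX2 window and 1 of 2 NR2F2 windows held 1, and the window ahead of DMRTA2 held 3. The letters CCAAT were in 32.0% of 35116 listed windows of the same length. TAATTA, a homeodomain core, was found on either strand once ahead of EMX2 and in 4.35% of all windows. AGGTCA, an element of nuclear receptors, and GACCACCCA, an element of GLI proteins, were in none of the windows of these genes and in 12.1% and 0.199% of all. A match is a string of letters, not a measured binding site.

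The library held 14726 barcodes and 327640709 unique molecular identifiers (UMIs, each standing for 1 captured RNA molecule). Cells with 2000 to 10000 detected genes and a mitochondrial share below 0.1 were kept, 13925 (94.6%) with a median of 17900 UMIs. Clustering without the 8 genes gave 11 clusters, which were named from marker lists with thresholds set in earlier work after these data had been seen. Forebrain NPC-like cells were clusters 1, 2, 3, 4, 5, 7, 8 and 10, with 12302 cells (88.3%) and a median of 17081 UMIs. Contractile NPC-like cells, rich in actin-binding muscle-type genes such as TAGLN, were clusters 6 and 9, with 1517 cells (10.9%) and a median of 48176 UMIs. Differentiating-progenitor-like cells were cluster 11, with 106 cells (0.761%) and a median of 13414 UMIs. SIX3, a factor of the anterior forebrain, was at 331 CPM (UMIs per 1000000 UMIs) in forebrain NPC-like cells. Of 6 midbrain and hindbrain markers, HOXA2 had 0 UMIs in the kept cells and PAX2 had most, with 335. The 6 summed to 1.21 CPM in forebrain, 3.38 CPM in contractile and 3.07 CPM in differentiating cells. From forebrain to contractile cells GBX2 went from 0.0669 to 1.26 CPM, EN1 from 0.0879 to 0.730 and HOXB2 from 0 to 0.230. PAX2 went from 1.03 to 1.15 CPM and EN2 from 0.0251 to 0.0135.

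Levels in CPM were compared for each gene only with itself, since the genes run from 5894 bases (DMRTA2) to 303152 bases (GLI3). EMX2OS, NR2F1-AS1 and NR2F2-AS1 overlap EMX2, NR2F1 and NR2F2 on the opposite strand by 2624, 2428 and 1424 bases. The counting software was run with default settings, under which 3′ reads are assigned by strand.

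GLI3 was found in most cells and EMX1 and DMRTA2 in few. To set cells at the same depth, each was thinned at random to 5000 UMIs, which left out 28 shallower cells. GLI3 (chr7:41960949-42264100, minus strand, GRCh38) then had a UMI in 80.2% (79.5 to 80.9%) of 13897 cells, against 97.9% before thinning. LHX2 (chr9:124001670-124033301, plus strand) was found in 49.7% (48.9 to 50.5%), against 85.2% before. No class in the library is known to lack these genes, so a background share could not be measured.

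EMX2 (chr10:117542445-117549546, plus strand) was found in 23.3% (22.6 to 24.0%) of thinned cells, against 50.3% before thinning. PAX6 (chr11:31784779-31817961, minus strand) was found in 21.4% (20.7 to 22.1%), against 56.4%. NR2F1 (chr5:93583222-93594611, plus strand) was found in 11.2% (10.7 to 11.8%), against 30.9%. NR2F2 (chr15:96325938-96340263, plus strand) was found in 7.03% (6.61 to 7.47%), against 22.3%. EMX1 (chr2:72916260-72936071, plus strand) was found in 2.04% (1.81 to 2.29%), against 6.28%, and DMRTA2 (chr1:50417550-50423443, minus strand) in 1.52% (1.32 to 1.74%), against 5.01%.

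The genes were then compared between cell states. In contractile NPC-like cells, 7 of the 8 took a smaller share of UMIs than in forebrain NPC-like cells, each by over 2-fold, and NR2F2 took a larger share. Over 2-fold lower were also 22.3% of 16780 genes with at least 200 UMIs, and over 2-fold higher 7.35%. The median ratio over those genes was 0.788.

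The EMX genes and LHX2 had the lowest ratios of the 8. EMX1 was at 0.230 CPM in contractile and 4.10 CPM in forebrain NPC-like cells, a ratio of 0.0560 (0.0325 to 0.0901). EMX2 was at 4.54 and 60.4 CPM, a ratio of 0.0751 (0.0672 to 0.0837). LHX2 was at 26.8 and 162 CPM, a ratio of 0.165 (0.158 to 0.173). These genes are factors of the dorsal telencephalon, and NR2F1 and DMRTA2 came next. NR2F1 was at 6.15 and 27.7 CPM, a ratio of 0.222 (0.201 to 0.244). DMRTA2 was at 0.851 and 3.22 CPM, a ratio of 0.265 (0.201 to 0.342). PAX6 and GLI3 did not differ from each other beyond their intervals. Their ratios were 0.383 (0.363 to 0.404), from 20.8 and 54.3 CPM, and 0.389 (0.382 to 0.397), from 165 and 424 CPM.

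NR2F2 went the other way. Contractile cells held 57.4 CPM (55.7 to 59.1), against 12.0 CPM (11.6 to 12.4) in the forebrain class, a ratio of 4.78 (4.56 to 5.02), at percentile 97.3 of all genes. After thinning it was found in 17.8% (15.9 to 19.9%) of the contractile class, against 5.67% (5.26 to 6.09%) of the forebrain class. Its paralog NR2F1 was found in 2.39% (1.68 to 3.29%) and 12.2% (11.7 to 12.8%).

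The scale mattered, because contractile cells held more UMIs. Per cell, PAX6 was at 1.02 UMIs in contractile and 1.06 in forebrain NPC-like cells, a ratio of 0.962, and GLI3 at 8.05 and 8.23, a ratio of 0.978. On this scale the ratio was 0.141 for EMX1, 0.189 for EMX2, 0.415 for LHX2, 0.557 for NR2F1, 0.664 for DMRTA2 and 12.0 for NR2F2. Thus EMX1, EMX2 and LHX2 were lower by over 2-fold on both scales. The share of all genes lower by over 2-fold per cell was not computed. Ranks among all genes are the same on both scales, and PAX6 and GLI3 were at percentiles 13.3 and 13.8. Thinning left 1 EMX1 UMI in contractile cells, found in 0.0663% (0.00168 to 0.369%) of them against 2.24% (1.98 to 2.52%) of the forebrain class, and moved the ratio to 0.0285. At a clustering resolution of 0.2 the GLI3 ratio was 0.534, no longer past 2-fold. The contractile class was larger there, with clusters of 2369 and 167 cells, against 1517 cells in the main setting.

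Cluster 9 stood apart, with 167 cells and a median mitochondrial share of 0.140% against 5.16% over kept cells. Without it the ratios were 0.0540 for EMX1, 0.0724 for EMX2 and 4.82 for NR2F2. The 8 crest and mesenchyme markers summed to 90.1 CPM in contractile and 19.2 CPM in forebrain NPC-like cells, mostly COL1A2 in the former, and 1 of them was at 0 in contractile cells. The 4 epithelial markers summed to 168 and 50.3 CPM in the same order, mostly CLDN6 in contractile cells. KRT19 (12.6 and 29.9 CPM) and EPCAM (3.9 and 4.7 CPM) were lower in contractile cells. The 4 genes of the list NPC-3, which holds WLS, summed to 95.7 CPM in contractile and 35.3 CPM in forebrain NPC-like cells. In differentiating-progenitor-like cells they summed to 383 CPM, so a high sum was not particular to contractile cells. WLS and CDH18 were higher in contractile than in forebrain cells, and RBFOX1 slightly so (20.7 and 17.2 CPM). PAX3 of the same list went the other way, at 0.122 CPM in contractile and 1.94 CPM in forebrain cells. The 10 forebrain markers summed to 469 CPM in contractile and 1180 CPM in forebrain NPC-like cells, with none at 0. The part of these lists in the result was not tested.

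**Figure D1:**
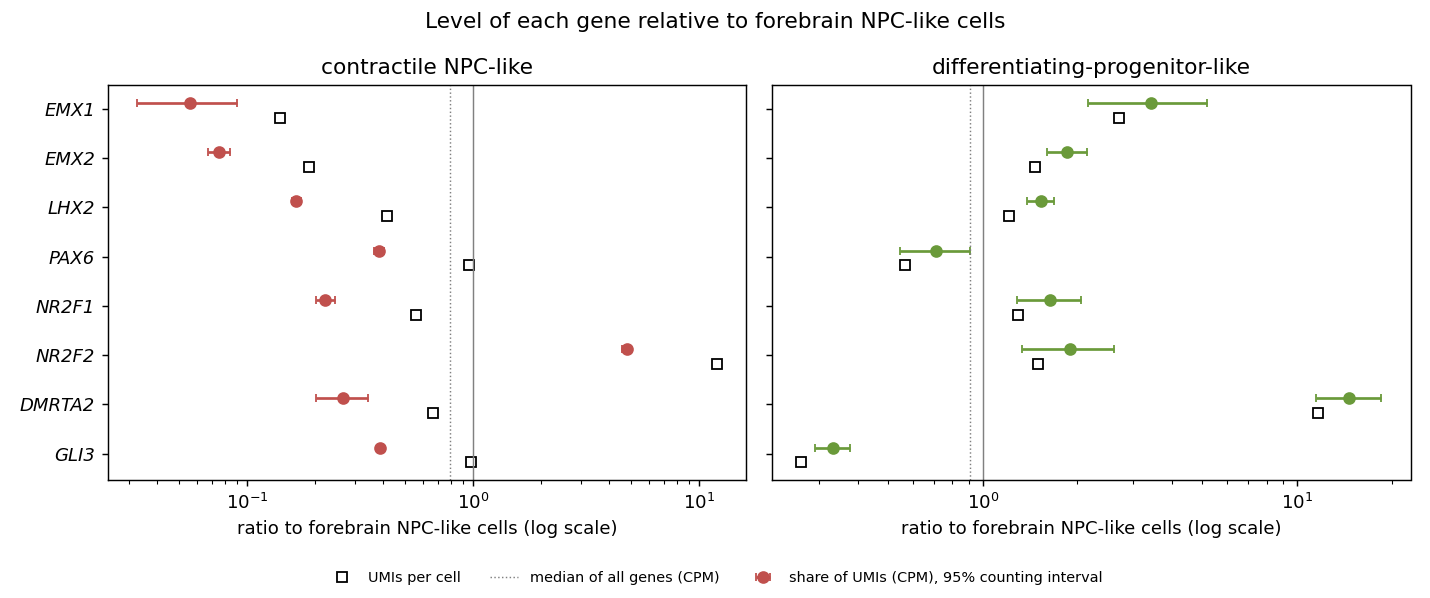
Level of each of the 8 genes in contractile NPC-like (left) and differentiating-progenitor-like cells (right) as a ratio to forebrain NPC-like cells, on a log axis, from shares of UMIs with 95% counting intervals and from UMIs per cell. On the left NR2F2 alone lies above 1 (a ratio of shares of 4.78), and on the right DMRTA2 lies farthest from 1 (14.7).

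The antisense neighbours went the same way as their genes. The contractile to forebrain ratio was 0.0704 (0.0616 to 0.0801) for EMX2OS, 0.255 (0.226 to 0.286) for NR2F1-AS1 and 2.18 (1.92 to 2.48) for NR2F2-AS1. Within the contractile class, the highest cell had 44 NR2F2 UMIs. After thinning, 1240 cells had none, 195 had 1, 54 had 2 and 20 had at least 3.

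Genes found in the same contractile cells as NR2F2 were picked in a random set of cells and read in the other 753, a search added after the NR2F2 level had been seen. FLRT2, a membrane adhesion protein, was found with NR2F2 in 67 cells against 34.2, a ratio of 1.96 (1.52 to 2.49), where the number expected is the product of the shares. SPP1, which encodes osteopontin, was found with it in 106 cells against 70.3, a ratio of 1.51 (1.23 to 1.82). WLS, a carrier of Wnt proteins to the cell surface, was found with it in 43 cells against 18.7, a ratio of 2.30 (1.67 to 3.1). By the phi coefficient of detection these 3 ranked 1, 2 and 4 of 11447 genes where read. ATXN1 and TANC1, also picked, ranked 21 and 60.

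In differentiating-progenitor-like cells, which held EOMES at 179 and TBR1 at 111 CPM, DMRTA2 stood apart. It was at 47.2 CPM (37.3 to 59.0), a ratio to forebrain NPC-like cells of 14.7 (11.5 to 18.6), at percentile 99.1 of all genes. A DMRTA2 UMI was found in 49.1% (39.2 to 59.0%) of these cells and 4.89% of forebrain NPC-like cells, and in 21.9% and 1.48% after thinning. EMX1 was at 14.1 CPM (8.94 to 21.2), a ratio of 3.44 (2.17 to 5.19), on 23 UMIs. These 2 of the 8 genes were higher by over 2-fold, as were 10.7% of all genes.

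With EMX1 and DMRTA2, 6 of the 8 genes had intervals above 1, as did 18.5% of all genes. The ratio was 1.86 (1.60 to 2.15) for EMX2, 1.53 (1.39 to 1.69) for LHX2, 1.64 (1.28 to 2.06) for NR2F1 and 1.89 (1.33 to 2.61) for NR2F2. PAX6 was at 38.6 CPM (29.7 to 49.4), a ratio of 0.711 (0.546 to 0.910). GLI3 was the 1 gene of the 8 lower by over 2-fold, where 18.3% of all genes were. It was at 141 CPM (123 to 161), a ratio of 0.333 (0.291 to 0.379), and SOX2, a progenitor factor, had a ratio of 0.237 (0.201 to 0.276).

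GLI3 was set against SOX2, TBR1 and other genes in these cells, a comparison picked from 64 gene and partner pairs after their values were seen. After thinning it was found in 52.2% (36.9 to 67.1%) of the 46 cells with a SOX2 UMI and 16.9% (8.44 to 29.0%) of the 59 without. It was found in 21.9% (12.5 to 34.0%) of the 64 cells with a UMI of TBR1, a factor of young neurons, and 48.8% (32.9 to 64.9%) of the 41 without. By NEUROD1, a factor of differentiating neurons, the order was the opposite of that by TBR1, with 37.8% (26.8 to 49.9%) of cells with a UMI and 19.4% (7.45 to 37.5%) without, and by EOMES it was 33.8% (23.0 to 46.0%) and 29.4% (15.1 to 47.5%). The intervals of both these splits overlapped, as did those by TBR1. DMRTA2 gave 17.4% (7.82 to 31.4%) and 25.4% (15 to 38.4%) by SOX2, and 21.9% (12.5 to 34.0%) and 22.0% (10.6 to 37.6%) by TBR1, so its intervals overlapped in both splits. Median depths with and without were 15330.5 and 12602 UMIs for SOX2, and 13644 and 13101 for TBR1.

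Within the forebrain NPC-like class, cluster 7 had the highest level of EMX1, EMX2, LHX2, NR2F1, NR2F2 and GLI3. The share of all genes that were highest there was not computed. Ranked by fold over the other cells, the leading genes of these 1181 cells included DLX1 and GSX2, at only 5.54 and 5.66 CPM. EMX2 was at 135 CPM (129.5 to 141) there, 2.47 (2.36 to 2.58) times its level in the other forebrain cells. NR2F1 was at 64.7 CPM (61.0 to 68.6), 2.61 (2.44 to 2.78) times the others. EMX1 was at 9.47 CPM (8.08 to 11), 2.57 (2.16 to 3.04) times. GLI3 and LHX2 were higher by less, and PAX6 was level. GLI3 was at 611 CPM (599.8 to 623), 1.49 (1.46 to 1.52) times, LHX2 1.3 (1.25 to 1.34) times and PAX6 1.01 (0.941 to 1.08) times the others. DMRTA2 was at 6.70 CPM (5.53 to 8.03) in cluster 7 and 7.51 CPM (4.11 to 12.6) in cluster 10, and these did not differ beyond their intervals.

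Cluster 5 held the lowest forebrain levels of EMX1, EMX2, LHX2, PAX6, NR2F1 and DMRTA2. The share of all genes that were lowest there was not computed. Its 1504 cells were led by genes that included FGF19, FGF17 and SIX6. They held TAGLN at 2287 CPM, against 40.0 CPM in cluster 7 and 4491 CPM in the contractile cluster 6. The contractile markers summed to 8410 CPM in cluster 5, 983 to 1770 CPM in the other forebrain clusters and 15505 CPM in cluster 6. On these markers cluster 5 thus lay between them, but none passed the 3-fold rule there, so it was named forebrain NPC-like. EMX1 was at 0.611 CPM (0.399 to 0.895), 0.126 (0.0816 to 0.185) times the other forebrain cells. EMX2 was at 14 CPM (12.9 to 15.2), 0.199 (0.183 to 0.216) times. NR2F1 was at 9.63 CPM (8.72 to 10.6), 0.305 (0.275 to 0.337) times. The difference was smaller for LHX2, PAX6 and GLI3, at 0.524 (0.507 to 0.542), 0.556 (0.526 to 0.588) and 0.925 (0.910 to 0.940) times.

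PAX6 was highest in cluster 4, led by mitotic genes such as ASPM and TOP2A, at 68.5 CPM (66.1 to 70.9), 1.34 (1.29 to 1.40) times the other forebrain cells. LHX2 was at 206 CPM (199 to 213) in cluster 7 and 199 CPM (193 to 206) in cluster 8, which did not differ beyond their intervals. Forebrain cells were also split by called cell cycle phase and thinned, and none of the 8 genes was in the phase lists. LHX2 was at 157 (151 to 164) CPM in G1, 160.4 (155 to 165) in S and 184 (178 to 189.7) in G2M, so that G2M alone stood apart. GLI3 was highest in G1 and lowest in G2M, at 464 (454 to 475), 423 (415 to 432) and 389.7 (381 to 398) CPM. PAX6 was at 55.6 (52.0 to 59.5), 49.5 (46.8 to 52.4) and 61.1 (57.8 to 64.6) CPM, and the intervals of G1 overlapped those of both other phases.

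**Figure D2:**
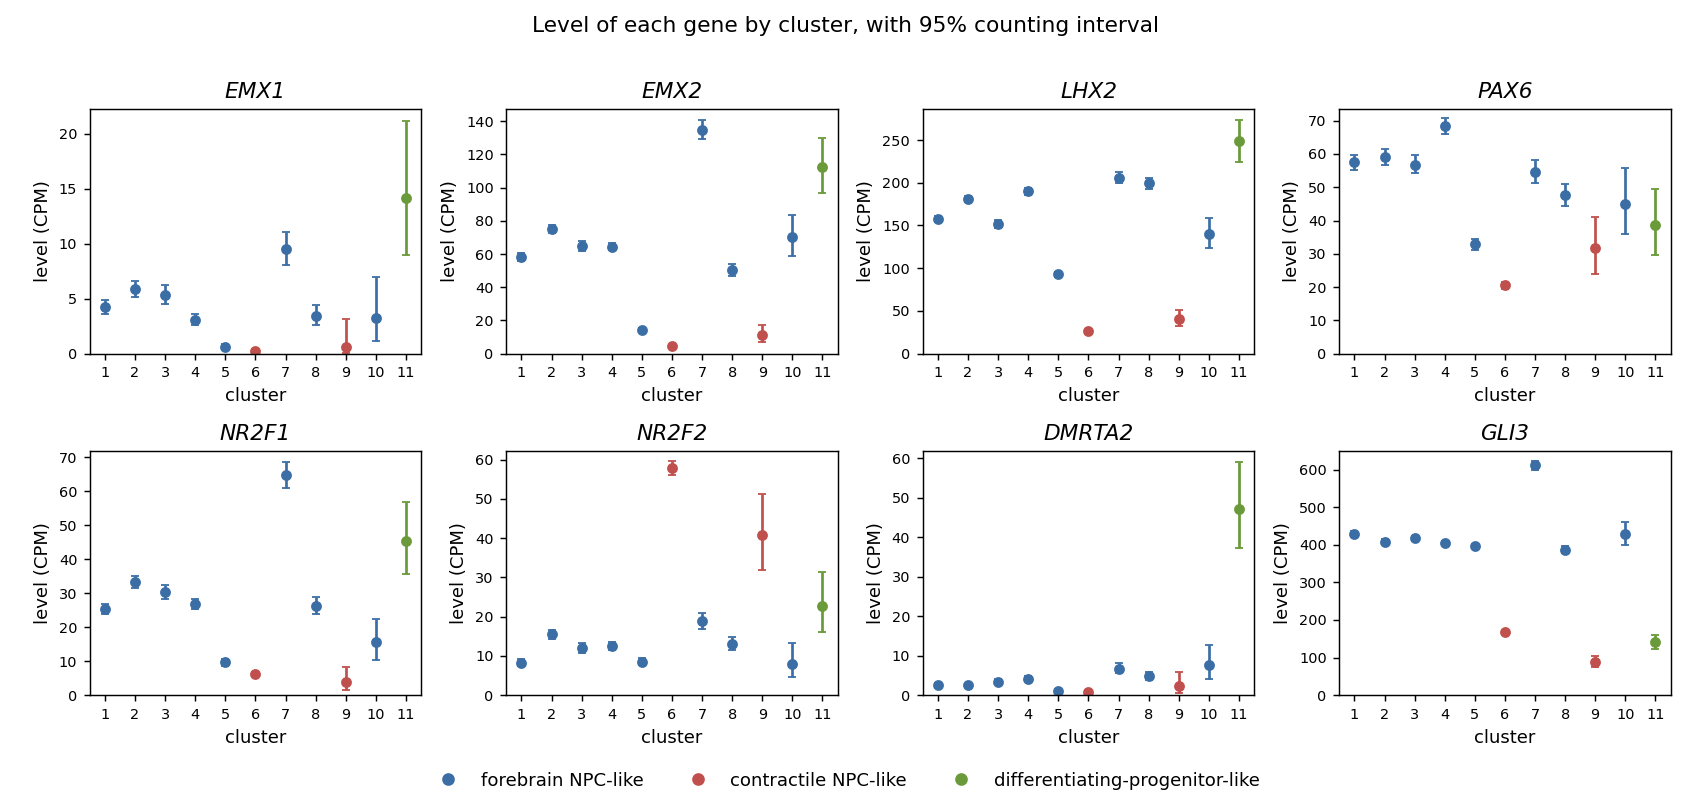
Level of each gene in CPM (vertical axis) by cluster (horizontal axis), with 95% counting intervals and colours for the 3 classes. EMX1, EMX2, NR2F1 and GLI3 are highest among forebrain clusters in cluster 7, NR2F2 is highest in the contractile clusters 6 and 9 (57.8 and 40.7 CPM), and DMRTA2 in cluster 11.

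Depth moved with some of the genes. Forebrain cells were ranked by total UMIs into 4 groups with medians from 11594 to 28708. From the shallowest to the deepest group, EMX2 was at 78.4 and 48.1 CPM, EMX1 at 6.86 and 2.64, NR2F1 at 36.3 and 22.7, and LHX2 at 187 and 148. PAX6, at 54.5 and 53.0 CPM, and GLI3, at 432 and 427 CPM, moved less. Clusters 7 and 5 had medians of 13373 and 25519.5 UMIs, and the part of depth, or of the TAGLN level, in their difference was not tested.

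The next question was whether the genes were found in the same cells. For each of the 28 pairs, the thinned cells with both genes were divided by the number that the product of the shares gives. Of these ratios, 21 were above 1, against 53.9% of the ratios of the 8 with all genes found in at least 2% of cells. The median of the 28 was 1.17, with a range from 0.854 to 1.81. NR2F1 with DMRTA2 had the highest, 1.81 (1.31 to 2.44), with 43 cells against 23.7. EMX1 with EMX2 came next at 1.70 (1.40 to 2.05), with 112 cells against 65.9. Another random thinning gave 23 pairs above 1 and a median of 1.12.

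A ratio of at least 1.1 was reached by 15 of the 28 pairs. EMX2 reached it with 5 of the 7 others, against 17.7% of 12324 genes found in at least 2% of cells, NR2F1 with 5 (18.2%) and DMRTA2 with 6 (26.4%). LHX2 reached it with 4 (5.25%), PAX6 with 4 (8.52%), EMX1 with 4 (26.6%), NR2F2 with 2 (16.3%) and GLI3 with 0 (0.0487%). A gene found in most cells cannot have a high ratio, and 1.25 was the highest open to GLI3. NR2F2 with GLI3 was the 1 pair of 28 with an interval below 1, at 0.909 (0.843 to 0.978), where 6.37% of pairs of the 8 with all those genes were.

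When the expected number was summed within clusters, 23 of the 28 ratios were nearer to 1 and the median was 1.06. Intervals lay above 1 for 15 pairs over all cells, against 7.61% of pairs of the 8 with all those genes. Within clusters they did for 5, against 1.19%. The 5 were EMX2 with EMX1, LHX2, PAX6 and NR2F1, and NR2F1 with NR2F2. NR2F1 with DMRTA2 was then at 1.35 (0.975 to 1.82) and EMX1 with EMX2 at 1.3 (1.07 to 1.57). EMX2 with NR2F1 went from 1.39 (1.27 to 1.51) to 1.11 (1.02 to 1.21), and EMX2 with PAX6 from 1.25 (1.16 to 1.33) to 1.12 (1.05 to 1.20). The other 5 ratios moved away from 1. The paralogs NR2F1 and NR2F2 went from 1.26 (1.06 to 1.48) to 1.37 (1.15 to 1.62), and EMX1 with NR2F1 from 0.974 (0.662 to 1.38) to 0.755 (0.513 to 1.07). EMX2 with NR2F2, NR2F2 with DMRTA2 and DMRTA2 with GLI3 were at 1.12, 1.43 and 1.02 within clusters, and the intervals of these 3 held 1.

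**Figure D3:**
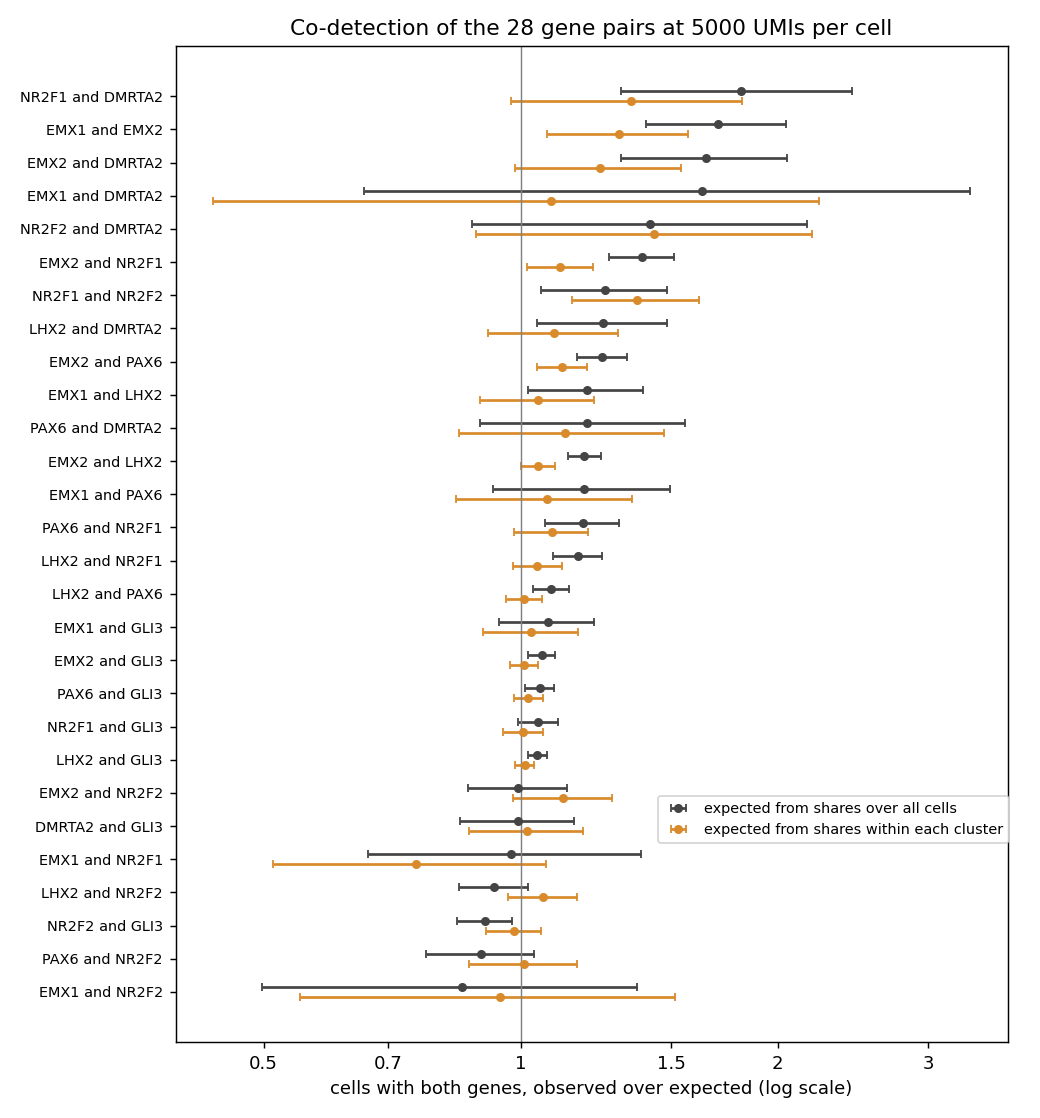
Cells with both genes over the expected number (log axis) for the 28 pairs at 5000 UMIs per cell, with 95% counting intervals, expected from shares over all cells and from shares within each cluster. The median is 1.17 over all cells and 1.06 within clusters, while NR2F1 with NR2F2 moves from 1.26 to 1.37.

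In forebrain NPC-like cells alone, 27 of the 28 pairs were above 1, against 50.7% of the ratios of the 8 with all genes found in at least 1% of these cells. The median was 1.09, and 11 had intervals above 1. Of these, 5 also had intervals above 1 within clusters, and no pair with DMRTA2 was among the 5. EMX2 had an interval above 1 with 6 of the 7 others, where 6.74% of 14050 genes did, and below 1 with none (6.16% did). NR2F1 had 5 above (4.57%) and none below (3.97%). NR2F2 had 3 above (2.32%) and none below (2.14%), and DMRTA2 3 above (1.57%) and none below (1.57%). LHX2 had 2 above (0.925%) and none below (2%), PAX6 2 above (1.37%) and none below (1.63%), EMX1 1 above (1.89%) and none below (2.08%), and GLI3 none above (0.0142%) or below (0%). GLI3, found in 84.4% of these cells, had an interval above 1 with 2 of 14050 genes and below 1 with 0. Its counts could hardly differ from none, so they say little about these pairs. EMX2 with NR2F1 was at 1.28 (1.17 to 1.40), NR2F1 with NR2F2 at 1.48 (1.23 to 1.76) and EMX2 with PAX6 at 1.17 (1.1 to 1.26). EMX2, NR2F1 and PAX6 were all 3 found in 141 cells against 88.9, a ratio of 1.59 (1.33 to 1.87).

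The antisense RNAs were found with their own genes at ratios of 3.90 (2.82 to 5.25) for NR2F2-AS1, 1.93 (1.68 to 2.21) for NR2F1-AS1 and 1.5 (1.40 to 1.60) for EMX2OS. With the number expected summed within clusters these were 2.75 (1.99 to 3.70), 1.58 (1.38 to 1.82) and 1.20 (1.13 to 1.29). Over all cells, several ratios with other genes of the 8 were also above 1. For NR2F2-AS1 they were 3.36 (1.45 to 6.61) with DMRTA2, on 8 cells, and 2.55 (1.86 to 3.41) with NR2F1, on 45 cells. NR2F1-AS1 had 1.26 (1.01 to 1.56) with NR2F2 and 1.19 (1.05 to 1.35) with EMX2, and EMX2OS had 1.37 (1.06 to 1.73) with EMX1 and 1.28 (1.15 to 1.42) with NR2F1. Within clusters NR2F2-AS1 stayed above 1 with DMRTA2, at 2.89 (1.25 to 5.70), and with NR2F1, at 2.38 (1.73 to 3.18). NR2F1-AS1 did so with NR2F2, at 1.36 (1.09 to 1.68), so such ratios were not confined to a neighbour's own gene. The intervals of NR2F1-AS1 with EMX2 and of EMX2OS with EMX1 and NR2F1 then held 1. Some ratios were not above 1 over all cells either, such as NR2F2-AS1 with GLI3 at 0.985 (0.819 to 1.17) and EMX2OS with NR2F2 at 0.879 (0.745 to 1.03).

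Counted per cell, 1001 thinned cells had none of the 8 genes, 3899 had 1, 4958 had 2, 2896 had 3 and 940 had 4. At least 3 were found in 29.1% (28.3 to 29.8%), against 27.4% by the product of the shares. At least 5 were found in 203 cells, against 90.2. The clusters differed widely. The share with at least 3 was 52.9% (50 to 55.8%) in cluster 7, 10.6% (9.06 to 12.2%) in cluster 5 and 3.45% (2.58 to 4.49%) in contractile cells.

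**Figure D4:**
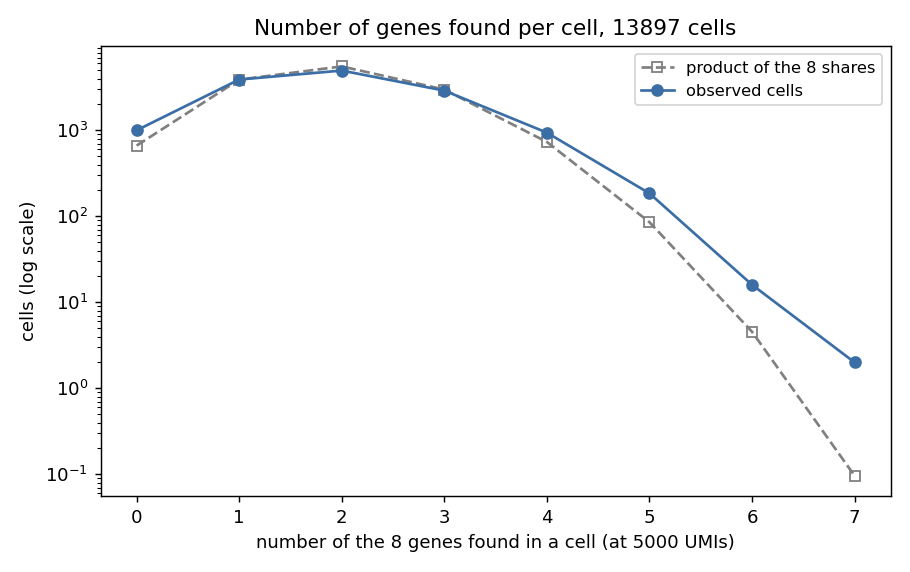
Number of cells (vertical log axis) by how many of the 8 genes were found at 5000 UMIs (horizontal axis), as observed and by the product of the 8 shares. The observed number is above the product for 0 genes (1001 against 664) and for 5 (185 against 85.5), and below it for 2 (4958 against 5542).

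All 8 genes were spread more unevenly over cells than the median gene of like level, from percentile 68.1 for GLI3 to 95.3 for NR2F2. The variance of thinned counts was 1.28 times the mean for NR2F1, at percentile 94.6 of 1725 genes of like mean, whose median was 1.04. It was 1.28 for NR2F2 (percentile 95.3) and 1.26 for EMX2 (percentile 90.8). In forebrain NPC-like cells alone, percentiles ran from 65.6 for GLI3 to 95.8 for NR2F1. There NR2F1 was at 1.27 times the mean, EMX2 at 1.23 (percentile 91.3), DMRTA2 at 1.1 (87.9) and NR2F2 at 1.1 (86.0).

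The genes were last set beside a list of 58 regional and pathway genes in forebrain NPC-like cells, of which 30 were found in at least 1% of cells. The share of all genes with such intervals is the one given above for each gene. EMX2 had an interval above 1 with 6 of the 30 and below 1 with 8, NR2F1 with 5 and 9, NR2F2 with 2 and 6, and GLI3 with 0 and 0. DMRTA2 had 4 and 2, LHX2 4 and 2, PAX6 4 and 1, and EMX1 3 and 2.

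EMX2 and NR2F1 were found less often with some genes of the anterior forebrain, among them FGF17, SIX6 and VAX1, but not with others. FGF17, a growth factor of the anterior midline, shared 52 cells with EMX2 against 86.1, a ratio of 0.604 (0.451 to 0.792), and 18 with NR2F1 against 41.0, a ratio of 0.439 (0.260 to 0.694). SIX6, a factor of the eye field and hypothalamus, had ratios of 0.290 (0.15 to 0.506) and 0.356 (0.143 to 0.733). VAX1, a factor of the ventral forebrain and optic stalk, had 0.786 (0.719 to 0.858) and 0.801 (0.703 to 0.909). The intervals of FGF8 held 1 with both genes, at 1.08 (0.920 to 1.25) and 0.878 (0.679 to 1.12). With EMX2, those of SP8, FEZF1, HESX1 and RAX held 1 too. They were at 1.04 (0.971 to 1.11), 0.955 (0.894 to 1.02), 0.944 (0.780 to 1.13) and 1.07 (0.822 to 1.37). SIX3 was slightly below 1 with EMX2, at 0.920 (0.881 to 0.959). FGF17 was at 19.1 CPM in cluster 5 and 0.404 CPM in cluster 7.

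Of the 6 genes of the list with intervals above 1 for EMX2, 4 had them for NR2F1 too. These were HES5, POU3F2, OTX2 and WNT2B. The intervals of FEZF2 and OTX1 held 1 with NR2F1, at 1.03 (0.932 to 1.14) and 1.22 (0.934 to 1.56), and that of GLI2 was above 1 with NR2F1 alone of this pair, at 1.08 (1.00 to 1.16) against 1.04 (0.988 to 1.09). HES5, a Notch target of progenitors, had 1.36 (1.3 to 1.43) with EMX2 and 1.32 (1.23 to 1.41) with NR2F1, while HES1, of the same family, had 0.847 (0.796 to 0.900) and 0.842 (0.770 to 0.920). POU3F2, a POU factor of neural precursors, had 1.47 (1.31 to 1.65) with EMX2, 1.76 (1.51 to 2.05) with NR2F1 and 1.67 (1.31 to 2.09) with NR2F2. WNT2B, a Wnt ligand, had 1.36 (1.23 to 1.5) with EMX2 and 1.38 (1.19 to 1.59) with NR2F1, and the forebrain factor OTX2 had 1.18 (1.12 to 1.24) and 1.18 (1.1 to 1.27). HES5 was at 552 CPM in cluster 7 and 22.7 CPM in cluster 5.

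These ratios were not computed within clusters. With PAX6, the intervals of SIX6, FGF17 and VAX1 held 1, at 1.13 (0.816 to 1.53), 0.998 (0.788 to 1.25) and 0.959 (0.880 to 1.04), and that of the forebrain factor FEZF2 was above 1, at 1.08 (1.01 to 1.16). RSPO3, a Wnt agonist, had 0.573 (0.367 to 0.852) with PAX6, 0.470 (0.295 to 0.712) with EMX2 and 0.270 (0.0989 to 0.587) with NR2F1. DMRTA2 had 3.08 (1.86 to 4.81) with OTX1, on 19 cells, and 0.439 (0.251 to 0.713) with VAX1. Of the Hedgehog genes beside GLI3, the receptor PTCH1 was at 25.2 CPM in forebrain and 25.6 CPM in contractile cells, and the ligand SHH had 8 and 187 UMIs.

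**Figure D5:**
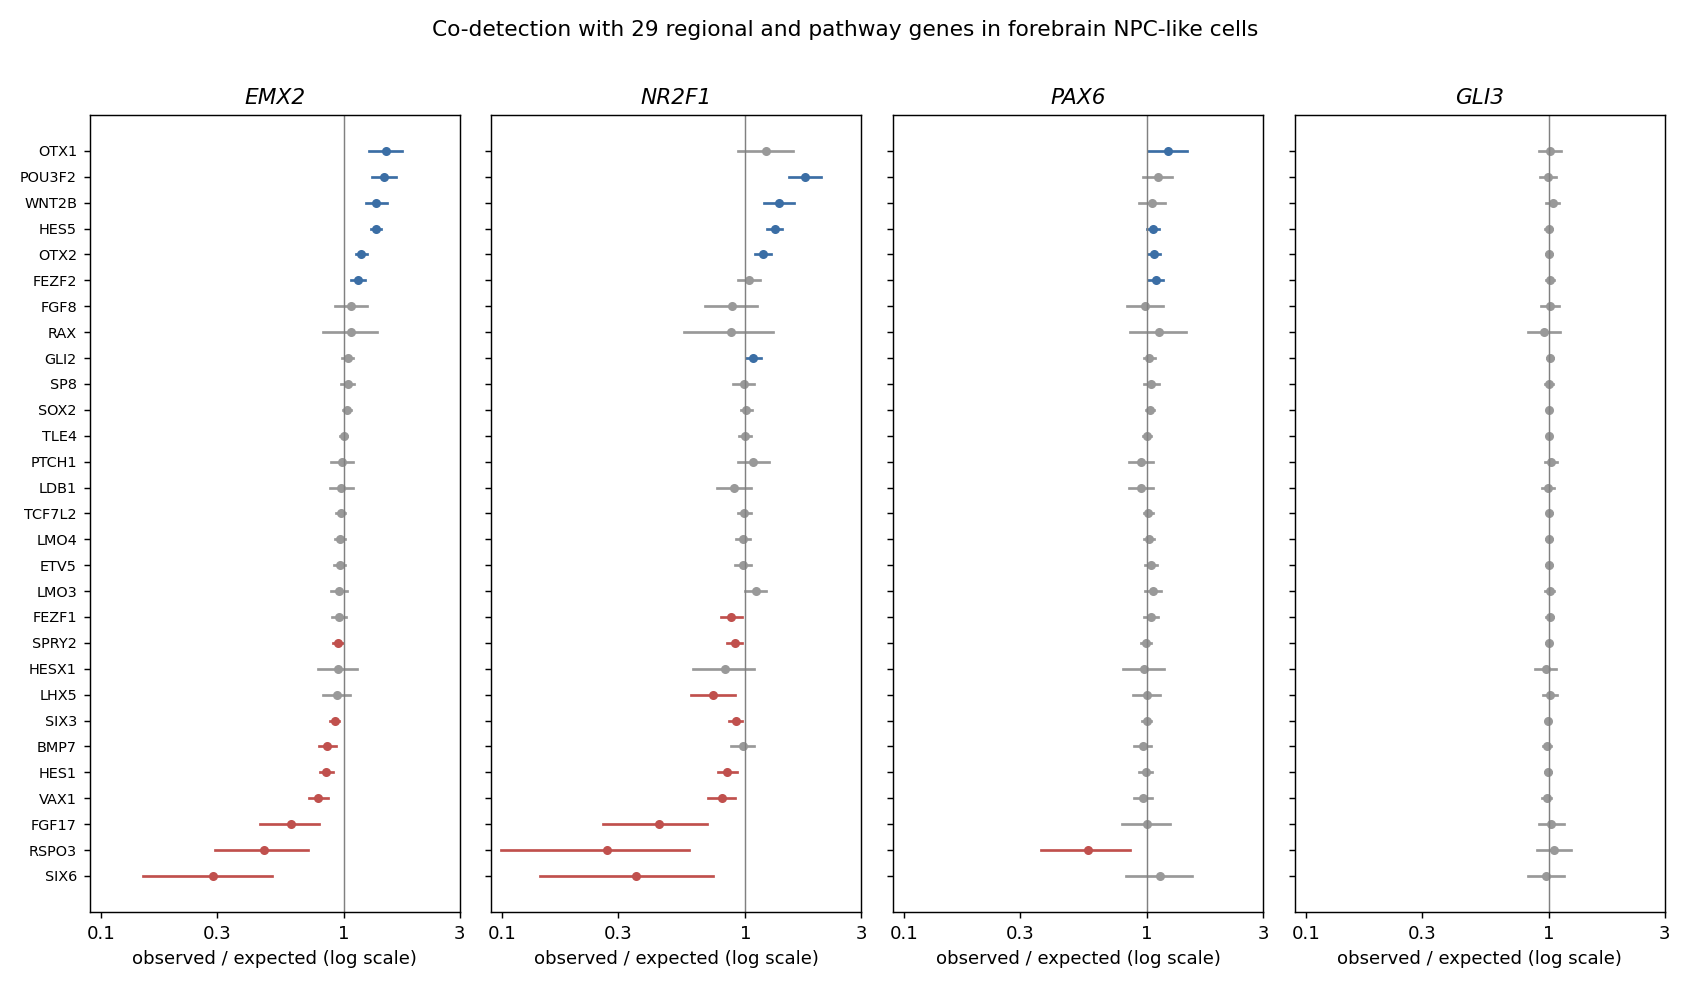
Cells with both genes over the product of their shares (log axis, with 95% counting intervals) for 4 of the genes, 1 per panel, with each of 29 regional and pathway genes in forebrain NPC-like cells. SIX6 lies low for EMX2 and NR2F1 (0.290 and 0.356). No GLI3 interval lies apart from 1, where 0.0142% of all genes lay above it and 0% below.

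The genes found in cells most like those of each of the 8 were picked in a random set of 6101 forebrain NPC-like cells and read in the other 6182, among 12309 genes. For EMX2, HES5 had a phi of 0.162 where picked and 0.179 where read, and C1orf61 0.152 where picked and 0.147 where read. For NR2F1, EPHA3, an ephrin receptor, had 0.116 where picked and 0.116 where read. For LHX2, FABP7, a lipid-binding protein of radial glia, had 0.0832 where picked and 0.0858 where read. All of these are small. Others fell away, such as EXOSC5 for EMX1 with 0.0694 where picked and -0.00386 where read, and DACH1 for PAX6 with 0.0549 where picked and 0.00881 where read.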

How the data were processed

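Single-cell RNA-seq of 1 library (10x Genomics 3′ HT v3.1) was analysed from the deposited table of counts, whole UMI counts per gene and barcode, which the authors had made with Cell Ranger 7.0.1 on GRCh38, per the submitters' processing notes. The notes also list Seurat 4.4.0. The study's methods give default settings, which in this version count intronic reads and assign reads by strand. The annotation version is not given in the sources used here. The filter on cells was that of the study's methods. Counts were thinned without replacement to 5000 UMIs (fixed seed). Clustering used log-normalized counts, 2000 variable genes without the 8 genes, 30 components, 20 neighbours and Leiden resolution 0.5 (scanpy 1.11.5, leidenalg 0.10.2, Python 3.11.15, numpy 2.4.6, scipy 1.17.1). A class needed 3 of its markers at 20 CPM and 3-fold over the other cells. Otherwise 3 forebrain and 3 progenitor markers at 50 CPM gave forebrain NPC-like. Some marker lists hold genes that the study picked on this library. Scrublet's automatic threshold marked 222 barcodes (1.51%), and no doublets were removed; an alternative left out the top 8% of scores.

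Level intervals are exact Poisson or conditional, and shares have Clopper-Pearson intervals. Co-detection intervals are Poisson, on the observed count. Reads of one culture are not replicates, so no test was run. Gene positions are from GENCODE 44 and promoters from RefSeq. The named genes were the 8, their antisense neighbours, a list of 58 regional and pathway genes, and the 3 partners of each gene with the highest phi. The 8 genes and all lists were chosen with earlier results of these data known. Some genes are not reported here. The scripts were tested on simulated counts. The alternatives varied the thinning depth and seed, the clustering, the scale, the doublets and the cell filter.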

Additional observations from a re-analysis of the deposited data

How the results depend on the processing

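Of the 8 genes, the number with a lower level in the contractile class than in the forebrain class was 7 under the main setting and each of the 8 alternatives, among them leaving out cluster 9, which was chosen after seeing the data. Of 64 contractile to forebrain level ratios under alternatives, 39 stayed within their interval, 25 moved out of it and 0 changed direction. Both counts take any ratio below 1 as lower. The median ratio of all genes was 0.788, and their share below 1 was not computed. Per cell, PAX6 and GLI3 were close to 1, at 0.962 and 0.978, so their direction is uncertain on that scale. For the differentiating class only the scale was varied, and per cell the ratios were 11.6 for DMRTA2 and 0.264 for GLI3. No alternative was run for single clusters. The median co-detection ratio, 1.17, was 1.12 at 2500 UMIs, at 10000 UMIs and with another seed. It was 1.18 with all deposited barcodes and 1.18 without the top doublet scores. Without thinning it was 1.08, with the number expected within clusters 1.06 and in forebrain NPC-like cells alone 1.09. The last 2 set cells against others of their cluster or class, and the cause of each difference was not tested. The share of cells with at least 3 genes, 29.1%, was 9.50% at 2500 UMIs and 58.0% at 10000 UMIs, as fewer or more UMIs per cell find fewer or more genes. At 10000 UMIs, 13153 cells remained. No paired analysis was possible because there is 1 sample and no test. With 1 library, the spread between cultures or clones is unknown, and pooled clones cannot be told apart. Depth limits EMX1 and DMRTA2 most, which had 0.0733 and 0.0653 UMIs per cell.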
